A study of Homo sapiens with 8 samples.

Results

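The 33 genes described here are targets of the transcription factor p53 and members of the BCL2 family of apoptosis genes. They were chosen by symbol from a list of known p53 target and apoptosis genes, with earlier results of these data known. All 33 of 33 symbols were found among the 60659 genes of the count table. The study sequenced total RNA, after removal of ribosomal RNA, from the human neuroblastoma line SK-N-SH, with 2 libraries for each of 4 groups. The labels describe 2 biological replicates for each condition. All 4 groups had received all-trans retinoic acid (ATRA, 10 µM for 24 h), a vitamin A derivative that drives neuroblastoma cells towards neurons. In the overexpression experiment, cells carrying FLAG-tagged ZMYND8, a chromatin reader protein, in a lentiviral doxycycline-inducible vector were compared with parental cells, and both groups received doxycycline (Dox). In the methods the transduced cells were a G418-selected population, and the parental cells are not said to carry an empty vector. In the knockdown experiment, cells with ZMYND8 knockdown (KD) were compared with KD control cells, with no Dox in the labels. The methods describe knockdown by lentiviral short hairpin RNA, with puromycin selection stated only for neural stem cells and another neuroblastoma line. They state neither the selection nor the hairpin for these libraries. The titles call the KD control libraries CONTROLI and CONTROLII, without saying whether these were different controls.

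p53 is kept low in unstressed cells by MDM2 and MDM4, and MDM2 is itself a p53 target, which closes a feedback loop. When DNA is damaged, p53 binds response elements in its target genes and switches on genes of cell cycle arrest, DNA repair and cell death. The BCL2 family decides whether mitochondria release cytochrome c: BAX opens the outer membrane, the BH3-only proteins (BBC3, PMAIP1, BCL2L11 and BID) push towards opening, and BCL2, BCL2L1 and MCL1 hold it closed. In neuroblastoma BCL2, BCL2L1 and MCL1 are well-known survival factors.

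Since p53 acts through its response elements, the promoters of the 33 genes were searched for the consensus p53 response element, which is 20 bases long and made of 2 repeat units of 10 bases, here with no bases between them. RefSeq promoters (GRCh38.p14, 250 bases before to 50 bases after the start site) matched 27 of the 33 symbols. The C that opens and the G that closes the 4 core bases of each repeat unit had to match, so mismatches were allowed only elsewhere. With up to 2 mismatches, 4 of the 27 symbols had a match in a promoter, against 0.359% of all 27305 symbols with a promoter in the table. With up to 3 mismatches, 8 of the 27 held one, against 1.37% of all symbols. The limit on mismatches was chosen after the matches had been seen. Most of the genes were picked as known p53 targets, so an excess of matches follows from that choice. It is not a result of the expression data. The element reads the same on both strands, so each match counts once. The 8 sequences are shown because they are the stretches of these promoters that met the above rule for the element through which p53 acts. Each is given 5′ to 3′ on the strand of its gene, with the 4 core bases of each repeat unit in capitals.
DDB2 (chr11:47214969-47214988, plus strand): aagCTGGtttgaaCAAGccc
AEN (chr15:88621306-88621325, plus strand): gggCTTGcccgggCATGtgg
FAS (chr10:88991309-88991328, plus strand): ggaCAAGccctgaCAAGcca
MDM2 (chr12:68808923-68808942, plus strand): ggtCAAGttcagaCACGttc
FDXR (chr17:74872996-74873015, minus strand): gggCAGGagcgggCTTGccc
GDF15 (chr19:18386186-18386205, plus strand): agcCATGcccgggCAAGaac
PMAIP1 (chr18:59899811-59899830, plus strand): gagCGTGtccgggCAGGtcg
SESN1 (chr6:109009018-109009037, minus strand): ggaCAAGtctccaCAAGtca
DDB2 had 1 mismatch, AEN, FAS and MDM2 had 2 each, and the other 4 had 3 each. The DDB2 match began 5 bases before the start site and the GDF15 match 28 bases after it. A match in letters is not a bound site, and an element outside this window would not be seen.

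The targeted gene followed its labels. ZMYND8 had 3089 and 3612 counts in parental cells and 220691 and 182849 in overexpressing cells, and it had 3128 and 3374 counts in the KD control and 1641 and 1640 in the knockdown libraries. Between 38316523 and 56256979 reads were counted on genes per library. The adrenergic state of neuroblastoma, known for HAND2 and GATA3, and the mesenchymal state, known for VIM, FN1 and PRRX1, were checked with 12 markers each, of which none was at 0 in all libraries. The summed level of the mesenchymal markers, in reads per kilobase of exon and per 1000000 scaled reads, was 1306 to 1364 in parental cells, 584 to 618 in overexpressing cells, 686 to 705 in the KD control and 835 to 872 in the knockdown libraries. The adrenergic sum was 127 to 128, 368 to 386, 280 to 294 and 215 to 242 in the same order, and the sum of 14 proliferation markers was 437 to 442, 379 to 418, 184 to 199 and 161 to 176. With overexpression, 11 of 12 mesenchymal markers passed the test as lower and 1 as higher, and 11 of 11 adrenergic markers passed as higher. With knockdown, 6 of 12 mesenchymal markers passed as higher and 2 as lower, and of 10 adrenergic markers 6 passed as lower and 0 as higher. Named after their values had been seen, the mesenchymal marker higher with overexpression was TWIST1 (1.31, adjusted p = 3.73e-09), and those lower with knockdown were PRRX1 (-0.98, adjusted p = 8.13e-07) and SNAI2 (-0.41, adjusted p = 0.0119). The part of these shifts in the results below was not tested.

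With ZMYND8 overexpression, p53 target and apoptosis genes were mostly lower than in parental cells. Of the 33 genes, 26 passed the test as lower and 2 as higher (adjusted p under 0.05 in edgeR's quasi-likelihood test over 20835 genes, with n = 2 libraries per group throughout). Among all genes tested, 60.8% passed, 29.1% as lower and 31.7% as higher, and among the 10254 genes with a mean normalized count of 500 or more, where 32 of the 33 lie, 44.1% passed as lower and 26.6% as higher. The largest decreases were in GDF15, PLK3, PMAIP1, BCL2L1, PHLDA3, CDKN1A, ZMAT3 and FAS, and these 8 genes also passed a threshold of 1 on the log2 scale with a mean normalized count above 20, which 6.84% of all genes tested passed as lower. No member passed it as higher, against 11.8% of all genes. Both shares past this threshold cover genes of every count level and were not computed for well-counted genes alone. The median log2 fold change over the 33 genes was -0.42, beside 0.03 over all genes tested. Both libraries of a group lay apart from both of the other in 33 of 33 genes, which was also so for 80.3% of all genes tested. Under upper quartile scaling the calls on MDM4 (adjusted p = 0.344) and DDB2 (adjusted p = 0.0804) were lost. In RNA from whole cultures, fewer cells expressing a gene and less RNA per cell cannot be told apart.

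**Figure D1:**
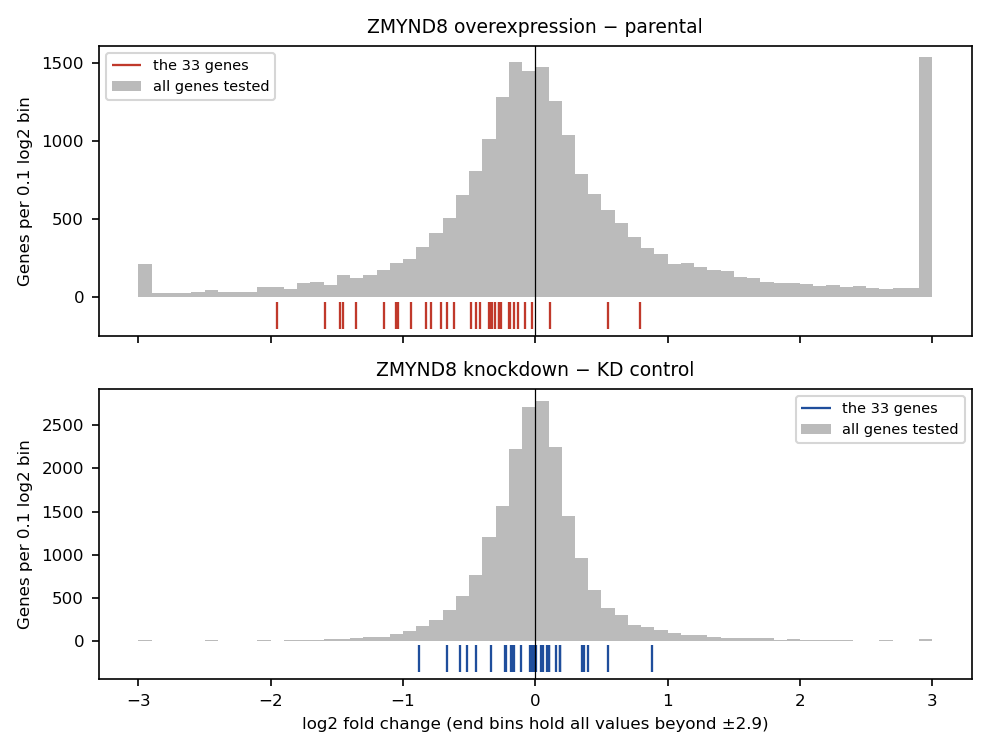
Histograms of the log2 fold change of all genes tested (grey, genes per bin of 0.1) with the 33 p53 target and apoptosis genes as coloured ticks below the axis, for overexpression minus parental (top) and knockdown minus KD control (bottom). With overexpression 30 of the 33 ticks lie below 0, and with knockdown they lie on both sides of 0 (19 below it).

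With ZMYND8 knockdown, the same 33 genes moved less and in both directions, and genes in general also moved less. The median log2 fold change without its sign was 0.17 over the 33 genes, against 0.49 with overexpression. Over all genes tested it was 0.20, against 0.44. Against KD control, 7 passed the test as higher (PMAIP1, TP53INP1, PLK3, BCL2L1, BID, MDM4 and MCL1) and 9 as lower (SESN1, TIGAR, BCL2, ZMAT3, DDB2, RRM2B, CDKN1A, CCNG1 and POLH), and 17 did not pass. Among the 19789 genes tested, 24.3% passed, 13.4% as higher and 10.8% as lower, and among genes with a mean normalized count of 500 or more, which all 33 have, these shares were 20.5% and 16.0%. No member passed the threshold of 1 on the log2 scale, which 1.96% of all genes tested did (1.36% as higher and 0.596% as lower). The median log2 fold change was -0.02, beside -0.01 over all genes. The groups did not overlap in 21 of the 33 genes, against 61.6% of all genes tested. Without KD control replicate 2, 4 members passed as higher and 8 as lower. Without a filter on low counts, the calls on CDKN1A (adjusted p = 0.133), CCNG1 (adjusted p = 0.0619), POLH (adjusted p = 0.105) and MCL1 (adjusted p = 0.0812) were lost.

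**Figure D2:**
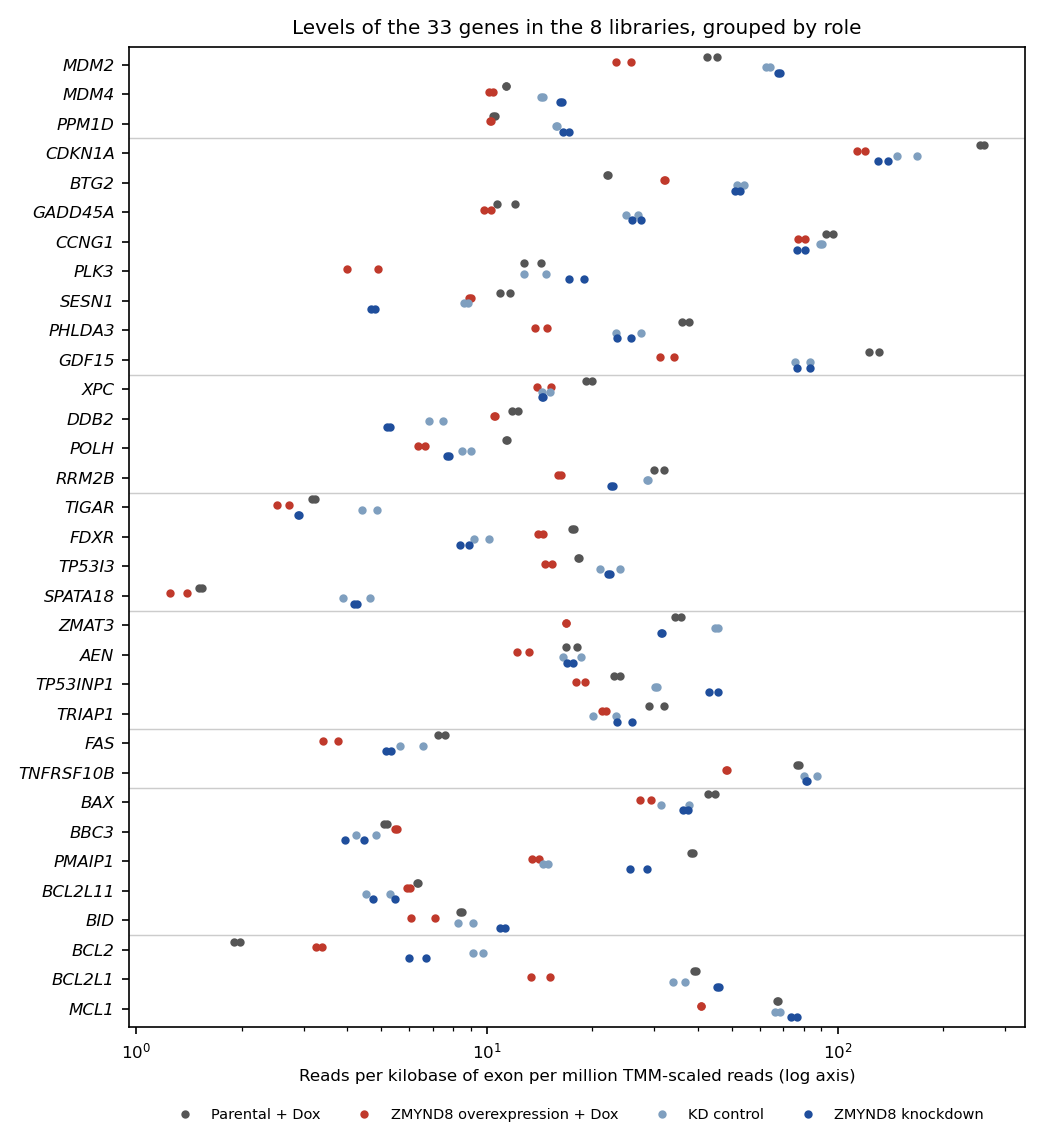
Level of each of the 33 genes (rows, grouped by role) in each of the 8 libraries, in reads per kilobase of exon and per 1000000 TMM-scaled reads on a log axis. CDKN1A is the highest of the 33 in the parental libraries at 256 and 262 and SPATA18 the lowest at 1.54 and 1.51, and the red overexpression points lie left of the grey parental points in 30 of 33 rows.

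The regulators of p53 among the targets differed from each other. MDM2, the ubiquitin ligase that marks p53 for breakdown (chr12:68808177-68850686), had levels of 45.3 and 42.4 reads per kilobase of exon and per 1000000 scaled reads (the unit of every level below) in parental cells and 25.7 and 23.3 with overexpression. It had 64.2 and 62.7 in the KD control and 68.5 and 67.8 in the knockdown libraries. MDM2 was thus lower in both overexpression libraries, at -0.83 on the log2 scale (standard error 0.060, adjusted p = 7.19e-07), and its knockdown change of 0.11 did not pass (adjusted p = 0.166). MDM4, an MDM2-like protein that blocks p53 without degrading it, had a small decrease with overexpression (-0.13, adjusted p = 0.0338) and a small increase with knockdown (0.19, adjusted p = 0.0185). The MDM4 call with overexpression was lost without either parental replicate (adjusted p = 0.0904 and 0.121) or without overexpression replicate 2 (adjusted p = 0.111). Its knockdown call was lost without either KD control replicate (adjusted p = 0.109 and 0.0763) or without knockdown replicate 1 (adjusted p = 0.0833). PPM1D, a phosphatase that damps p53 signalling, passed in neither comparison, at -0.02 (adjusted p = 0.694) and 0.09 (adjusted p = 0.226).

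Genes of cell cycle arrest and growth control held the largest decreases. GDF15, a secreted cytokine of the TGF-beta family induced by stress (chr19:18374731-18389176), had levels of 123 and 131 in parental cells and 34.2 and 31.1 with overexpression. Its levels were 83.7 and 75.8 in the KD control and 83.4 and 76.7 in the knockdown libraries. The overexpression libraries were thus far below the other 6, while KD control and knockdown overlapped. The GDF15 change on the log2 scale was -1.95 (standard error 0.062, adjusted p = 1.35e-09) with overexpression and 0.01 (adjusted p = 0.946) with knockdown. CDKN1A, the cyclin-dependent kinase inhibitor through which p53 arrests the cycle (chr6:36676460-36687337), had 256 and 262 in parental cells and 119 and 114 with overexpression. In the knockdown experiment CDKN1A had 168 and 148 in the KD control and 139 and 130.4 with knockdown. CDKN1A was the highest of the 33 genes in each group, fell by 1.14 on the log2 scale with overexpression (standard error 0.050, adjusted p = 1.48e-08) and fell by 0.23 with knockdown (standard error 0.066, adjusted p = 0.0294). The knockdown call on CDKN1A was lost without KD control replicate 1 (adjusted p = 0.210) and without knockdown replicate 2 (adjusted p = 0.0839).

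PLK3, a polo-like kinase of the stress response (chr1:44800377-44805990), had levels of 12.7 and 14.2 in the parental and 4.89 and 4.0 in the overexpression libraries, and of 14.7 and 12.7 in the KD control and 18.9 and 17.2 in the knockdown libraries. Thus PLK3 lay below its control in one experiment and above it in the other. Its log2 fold changes were -1.59 (standard error 0.095, adjusted p = 1.59e-07) and 0.40 (standard error 0.076, adjusted p = 0.00344), the second of which had an adjusted p of 0.0502 without KD control replicate 2. PHLDA3, which keeps AKT from the membrane, fell by 1.35 with overexpression (adjusted p = 1.13e-08) and had -0.04 with knockdown (adjusted p = 0.742). SESN1, a sestrin that restrains mTORC1 signalling (chr6:108986437-109094819), showed the reverse weighting. Its levels were 11.7 and 10.9 in the parental, 8.99 and 8.89 in the overexpression, 8.85 and 8.59 in the KD control and 4.79 and 4.68 in the knockdown libraries. SESN1 thus fell in both, by 0.32 (adjusted p = 0.000411) and by 0.88 (adjusted p = 5.82e-06) on the log2 scale, the largest decrease of the 33 genes with knockdown.

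BTG2, an antiproliferative cofactor of mRNA decay (chr1:203305491-203309602), went the other way with overexpression. It had levels of 22.0 and 22.2 in the parental and 32.0 and 32.2 in the overexpression libraries, and rose by 0.55 on the log2 scale (standard error 0.048, adjusted p = 3.32e-06). Its levels of 54.1 and 51.6 in the KD control and 50.9 and 52.9 in the knockdown libraries overlapped (-0.02, adjusted p = 0.785). CCNG1, the p53-induced cyclin G1, fell by 0.26 (adjusted p = 0.00121) and by 0.19 (adjusted p = 0.0213). The CCNG1 knockdown call was lost without either KD control replicate or without knockdown replicate 1 (adjusted p = 0.0759, 0.0885 and 0.137). GADD45A, a stress-induced growth arrest protein, passed in neither comparison, at -0.16 (adjusted p = 0.0934) and 0.04 (adjusted p = 0.673), and its overexpression change passed without parental replicate 2 (adjusted p = 0.0426).

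All 4 DNA repair and nucleotide supply genes were lower with overexpression. RRM2B, the p53-inducible subunit of ribonucleotide reductase, fell by 0.94 on the log2 scale (standard error 0.051, adjusted p = 7.18e-08) and POLH, a polymerase that copies past ultraviolet lesions, by 0.79 (adjusted p = 2.79e-07). XPC and DDB2, which recognise lesions for nucleotide excision repair, fell by 0.42 (adjusted p = 9.41e-05) and by 0.19 (adjusted p = 0.00886), the last with an adjusted p of 0.0732 without parental replicate 2. With knockdown DDB2 had levels of 5.18 and 5.30 against 7.48 and 6.85 in the KD control, so that it fell by 0.45 (standard error 0.067, adjusted p = 0.000847). RRM2B fell by 0.34 with knockdown (adjusted p = 0.000532) and POLH by 0.17 (adjusted p = 0.0337), while XPC had -0.03 (adjusted p = 0.731). The POLH knockdown call was lost when KD control replicate 1, KD control replicate 2 or knockdown replicate 2 was left out (adjusted p = 0.192, 0.0647 and 0.110).

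Among genes of redox balance, metabolism and mitochondria the changes with overexpression were small. FDXR, a mitochondrial ferredoxin reductase, fell by 0.30 (adjusted p = 0.000459), TP53I3, a quinone oxidoreductase, by 0.28 (adjusted p = 0.00141) and TIGAR, a phosphatase that slows glycolysis, by 0.28 (adjusted p = 0.00413). SPATA18, a mitochondrial quality control protein and the lowest of the 33 genes in the parental libraries, had -0.20 with overexpression (adjusted p = 0.160) and -0.01 with knockdown (adjusted p = 0.933). TIGAR had levels of 4.87 and 4.39 in the KD control and 2.89 and 2.91 in the knockdown libraries, which do not overlap, and fell by 0.67 (standard error 0.067, adjusted p = 6.14e-05). FDXR and TP53I3 had -0.16 (adjusted p = 0.119) and -0.01 (adjusted p = 0.956) with knockdown.

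Other p53 targets of RNA binding, autophagy and cell survival were lower with overexpression in 4 of 4 cases. ZMAT3, an RNA-binding zinc finger protein (chr3:178960121-179072215), had levels of 35.7 and 34.4 in the parental and 16.8 and 16.8 in the overexpression libraries, and of 45.8 and 44.8 in the KD control and 31.7 and 31.4 in the knockdown libraries. ZMAT3 was below its control in both experiments, with log2 fold changes of -1.05 (standard error 0.048, adjusted p = 1.77e-08) and -0.52 (standard error 0.050, adjusted p = 4.65e-05). TP53INP1, a stress protein that takes part in autophagy, had 23.0 and 24.0 in the parental and 18.0 and 19 in the overexpression libraries, against 30.5 and 30.1 in the KD control and 43.1 and 45.6 in the knockdown libraries. It fell by 0.33 with overexpression (adjusted p = 0.000256) and rose by 0.55 with knockdown (standard error 0.050, adjusted p = 3.35e-05). TRIAP1, a small survival protein, and AEN, an exonuclease of apoptotic cells, fell by 0.49 (adjusted p = 6.58e-05) and 0.45 (adjusted p = 7.62e-05) with overexpression, and had 0.19 (adjusted p = 0.117) and -0.02 (adjusted p = 0.851) with knockdown. TRIAP1 passed as higher there without KD control replicate 1 (0.29, adjusted p = 0.0495) and without knockdown replicate 1 (0.25, adjusted p = 0.0247).

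**Figure D3:**
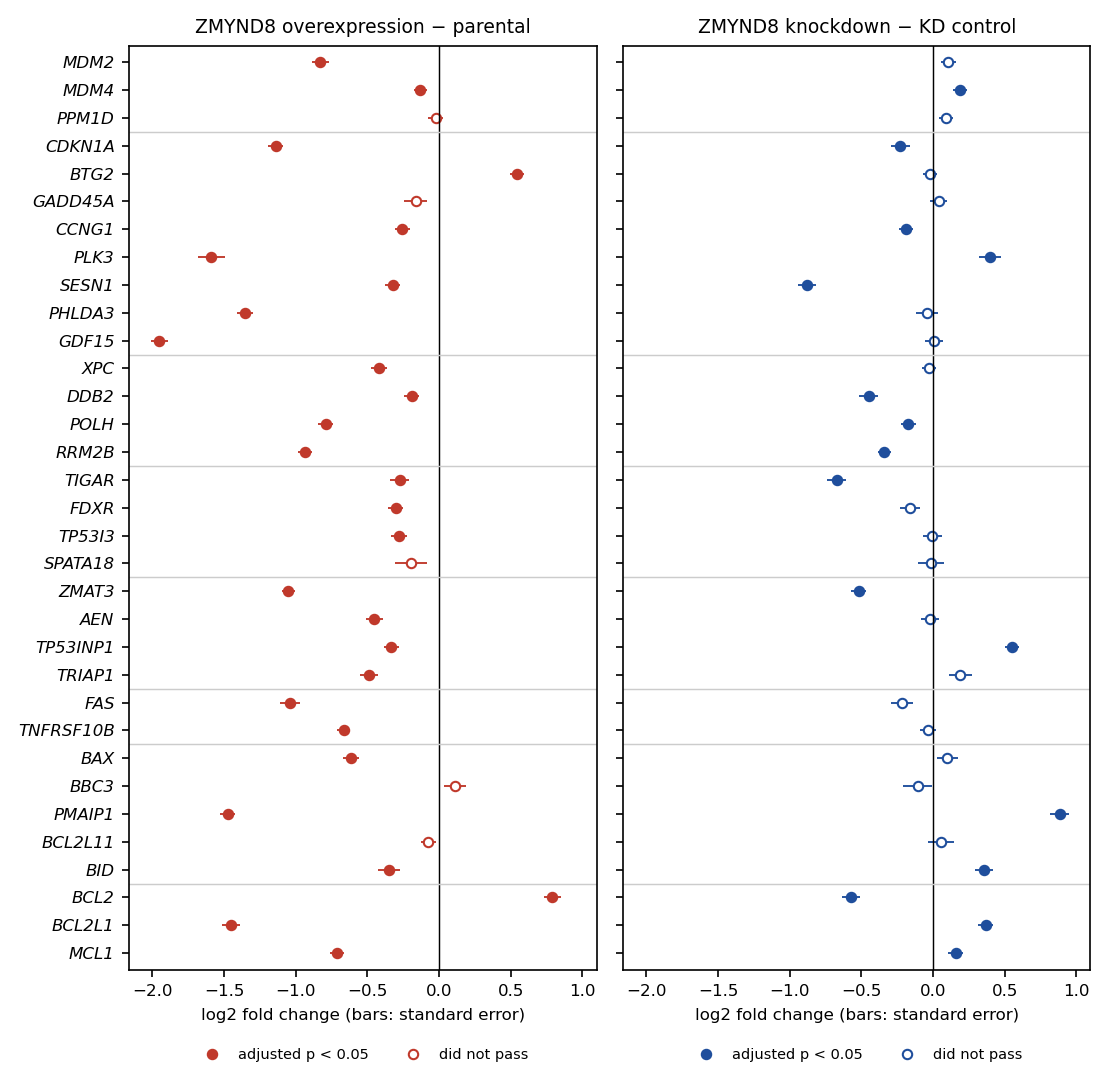
Log2 fold change of each of the 33 genes with overexpression (left) and knockdown (right), grouped by role as in the text, with standard errors as bars; filled points passed the test (adjusted p under 0.05). In the left panel 26 filled points lie below 0 and 2 (BTG2 and BCL2) above it, and in the right panel 9 lie below and 7 above.

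Both death receptors, which carry signals from outside the cell to caspases, were lower with overexpression. FAS (chr10:88990531-89017059) had levels of 7.59 and 7.26 in the parental and 3.77 and 3.40 in the overexpression libraries, and fell by 1.04 on the log2 scale (standard error 0.068, adjusted p = 3.12e-07). TNFRSF10B, a receptor for TRAIL, had 76.5 and 77.5 in the parental and 48.1 and 48.3 in the overexpression libraries, and fell by 0.67 (standard error 0.047, adjusted p = 5.21e-07). With knockdown FAS had -0.22 (adjusted p = 0.0627) and TNFRSF10B -0.04 (adjusted p = 0.692). FAS passed as lower without KD control replicate 2 (adjusted p = 0.0295) or without knockdown replicate 2 (adjusted p = 0.0413). Other genes of the table overlap 40.6% of the exon bases of FAS, among them ACTA2, whose counts were 3137 and 3719 in the parental, 1837 and 1388 in the overexpression, 4772 and 4577 in the KD control and 4665 and 4538 in the knockdown libraries. The strand setting of the counting is not given in the sources used here, so the reads of such pairs may not be told apart.

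Members of the BCL2 family differed in direction. PMAIP1, a BH3-only protein that binds MCL1 (chr18:59899996-59904305), had levels of 38.7 and 38.3 in the parental and 14.1 and 13.5 in the overexpression libraries, and of 15.0 and 14.5 in the KD control and 25.6 and 28.7 in the knockdown libraries. Its KD control libraries thus lay beside the overexpression libraries, and its knockdown libraries between these and the parental ones. PMAIP1 fell by 1.47 on the log2 scale with overexpression (standard error 0.053, adjusted p = 3.17e-09) and rose by 0.88 with knockdown (standard error 0.066, adjusted p = 8.71e-06), the largest increase of the 33 genes there. BID, a BH3-only protein that caspase cleavage activates, fell by 0.35 (adjusted p = 0.00252) and rose by 0.35 (adjusted p = 0.00223). BAX, the pore-forming effector, fell by 0.61 with overexpression (adjusted p = 3.80e-06) and had 0.10 with knockdown (adjusted p = 0.369), which passed as higher without KD control replicate 1 (0.23, adjusted p = 0.0406).

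The BH3-only genes BBC3 and BCL2L11 passed in neither comparison. BBC3 had levels of 5.09 and 5.18 in the parental and 5.49 and 5.54 in the overexpression libraries (0.11, adjusted p = 0.230), and 4.84 and 4.24 in the KD control and 4.47 and 3.93 in the knockdown libraries (-0.11, adjusted p = 0.492). A correction for the length and GC content of genes, added after the data had been seen, turned the BBC3 overexpression change to -0.30 (adjusted p = 0.00475). BCL2L11 had -0.07 (adjusted p = 0.245) and 0.06 (adjusted p = 0.706). Its raw counts equalled those of TP53I3 in both parental libraries and differed from them in the other 6.

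The prosurvival members did not move together. BCL2 (chr18:63123346-63320128) had levels of 1.90 and 1.97 in the parental and 3.39 and 3.26 in the overexpression libraries, and of 9.15 and 9.76 in the KD control and 6.01 and 6.70 in the knockdown libraries. It was higher with overexpression, at 0.79 (standard error 0.059, adjusted p = 9.64e-07), and lower with knockdown, at -0.57 (standard error 0.061, adjusted p = 0.000101). BCL2L1, which encodes BCL-XL (chr20:31664452-31723989), had 39.4 and 38.9 in the parental and 15.1 and 13.4 in the overexpression libraries, against 36.8 and 34.0 in the KD control and 45.9 and 45.2 in the knockdown libraries. BCL2L1 thus showed the opposite pattern, with log2 fold changes of -1.45 (standard error 0.062, adjusted p = 1.17e-08) and 0.37 (standard error 0.053, adjusted p = 0.000634). The antisense gene ABALON overlaps 41.3% of its exon bases, with 215 and 258 counts in the parental, 99 and 96 in the overexpression, 23 and 23 in the KD control and 28 and 40 in the knockdown libraries. MCL1, a short-lived protein that PMAIP1 opposes, fell by 0.71 with overexpression (standard error 0.046, adjusted p = 3.08e-07) and rose by 0.16 with knockdown (adjusted p = 0.0445). The knockdown call on MCL1 was lost whichever of the 4 libraries was left out (adjusted p = 0.0661 to 0.220).

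**Figure D4:**
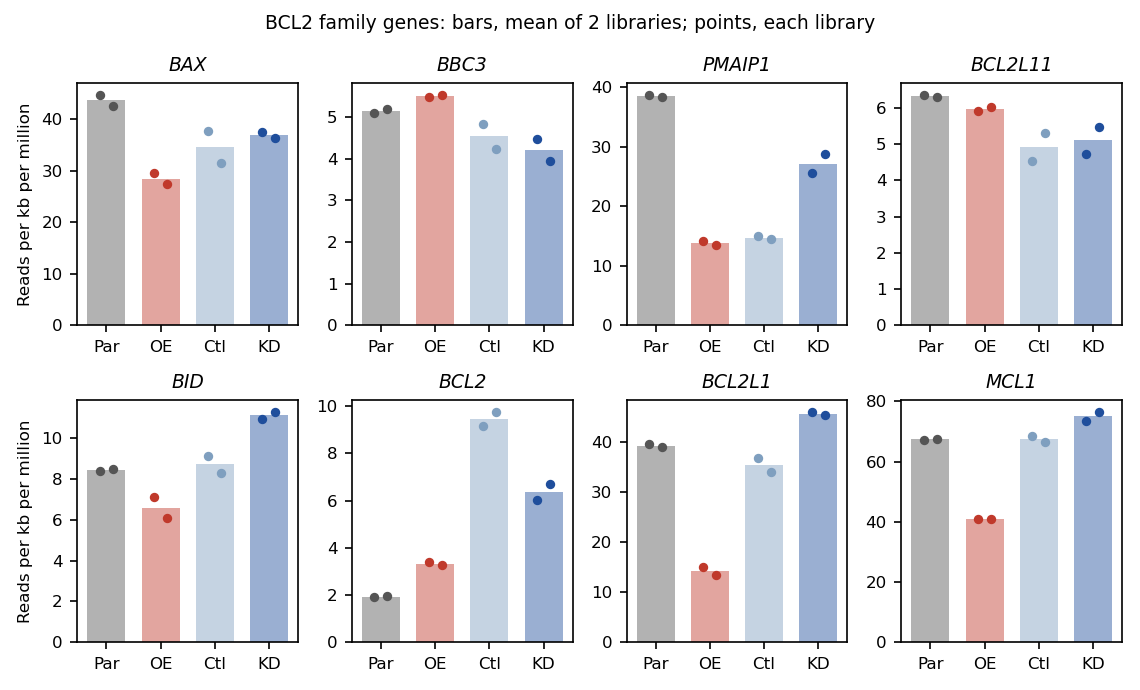
Levels of the 8 BCL2 family genes in reads per kilobase of exon and per 1000000 scaled reads (linear axes from 0); bars are means of 2 libraries and points the libraries, in parental (Par), overexpression (OE), KD control (Ctl) and knockdown (KD) cells. PMAIP1, BCL2L1 and MCL1 are lower in OE than in Par and higher in KD than in Ctl, and BCL2 is the reverse, with its highest level in Ctl (9.15 and 9.76).

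Set side by side, both experiments, which share no library, changed 16 of the 33 genes past the test. Of these 16, 8 had opposite signs: MDM4, PLK3, TP53INP1, PMAIP1, BID, BCL2L1 and MCL1 were lower with overexpression and higher with knockdown, and BCL2 was the reverse. The other 8 were lower in both (CDKN1A, CCNG1, SESN1, DDB2, POLH, RRM2B, TIGAR and ZMAT3), and no member was higher in both. Among all 18504 genes tested in both, 19.1% passed in both, and 61.7% of those had opposite signs. The shares of all genes were 7.86% for lower with overexpression and higher with knockdown, 4.42% for lower in both, 2.90% for higher in both and 3.90% for higher with overexpression and lower with knockdown. A further 11 members were lower with overexpression and did not pass with knockdown, BTG2 was higher with overexpression and did not pass with knockdown, and 5 passed in neither.

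The difference between the effects, overexpression minus knockdown, was tested in 1 model over all 8 libraries, where 49.0% of 22619 genes passed. It passed in 26 of the 33 genes, of which 21 had the lower effect with overexpression (24.4% of all genes) and 5 the higher (24.6% of all genes). These shares too cover genes of every count level. The largest differences on the log2 scale were -2.36 for PMAIP1 (standard error 0.087, adjusted p = 1.56e-11), -1.99 for PLK3, -1.97 for GDF15 and -1.83 for BCL2L1. The 5 genes with a higher effect were BCL2 at 1.35 (standard error 0.088, adjusted p = 7.34e-09), BTG2 at 0.56, SESN1 at 0.55, TIGAR at 0.39 and DDB2 at 0.25. For SESN1, TIGAR and DDB2 this means a smaller decrease with overexpression than with knockdown. The difference did not pass for PPM1D, GADD45A, CCNG1, FDXR, SPATA18, BBC3 and BCL2L11. It was lost for DDB2 without parental replicate 1, overexpression replicate 1, KD control replicate 1 or knockdown replicate 1 (adjusted p = 0.0529 to 0.116). For TP53I3 it was lost without either parental replicate, overexpression replicate 2 or KD control replicate 2 (adjusted p = 0.0547 to 0.102), and for GADD45A it passed without parental replicate 2 (adjusted p = 0.0432). Other settings also moved these calls. The DDB2 difference was lost with RLE factors (adjusted p = 0.0727), with DESeq2 (0.190) and without a filter on low counts (0.204), and that of TP53I3 with upper quartile scaling (0.0692). GADD45A passed with RLE factors (0.0296), without the filter (0.0142) and after a length correction without (0.0422) or with the replicate number as a block (0.0226), PPM1D with RLE factors (0.0396), and FDXR after the length correction with the block (0.0240).

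**Figure D5:**
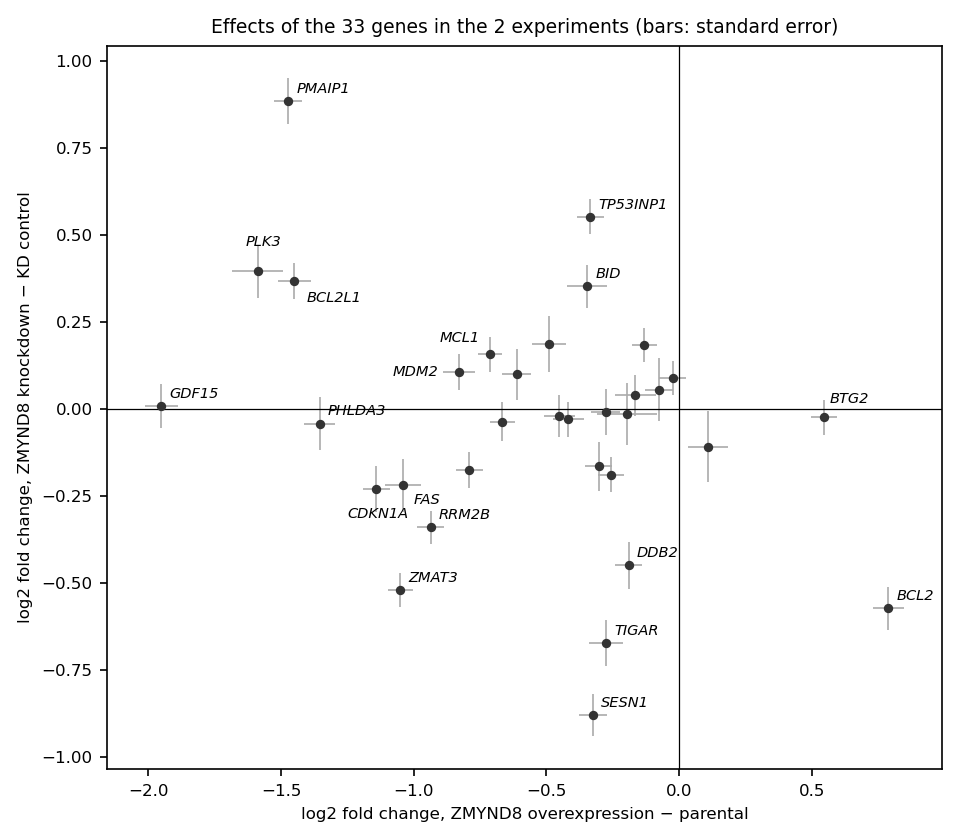
Log2 fold change with knockdown against log2 fold change with overexpression for the 33 genes, with standard errors as bars. PMAIP1, PLK3, BCL2L1, TP53INP1 and BID lie at the upper left, BCL2 at the lower right, SESN1, TIGAR, ZMAT3, RRM2B and DDB2 at the lower left, and GDF15 and PHLDA3 at the left close to 0 on the vertical axis.

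The controls of the experiments held the 33 genes at different levels. KD control libraries lay above both parental libraries in 12 genes and below both in 17, and the groups overlapped in MCL1, AEN, PLK3 and BID. The share of all genes for which these controls differed was not computed. The counts here therefore cannot be read as particular to the 33 genes. The log2 difference of the mean levels, KD control minus parental, was at least 1 in size for 5 genes: BCL2 (2.29), SPATA18 (1.49), PMAIP1 (-1.39), BTG2 (1.26) and GADD45A (1.20). These are values without a test, since experiment, Dox and transduction cannot be told apart between these controls. In the order of mean level in the parental libraries, CDKN1A (259 ± 4.64, SD, n = 2), GDF15 (127 ± 5.62), CCNG1 (94.8 ± 3.21), TNFRSF10B (77.0 ± 0.69) and MCL1 (67.4 ± 0.46) led, each apart from the next by more than the spread of its libraries. MDM2 (43.8 ± 2.04) and BAX (43.7 ± 1.5) overlapped. At the foot of the order stood TIGAR (3.20 ± 0.038), BCL2 (1.94 ± 0.050) and SPATA18 (1.52 ± 0.026), whose libraries did not overlap. The median level of the 33 genes, as the mean of the medians of both libraries, was 18.2 in parental, 13.8 in overexpression, 17.5 in KD control and 22.3 in knockdown cells. The knockdown change was below 0 in 19 of the 33 genes.

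Other genes of the pathway were also examined. Their lists, like the members, were chosen with earlier results of these data known, so they are not independent support. Of 29 other p53 targets tested with overexpression, 21 passed as lower and 3 as higher, with a median log2 fold change of -0.64. Among all genes tested 29.1% passed as lower and 31.7% as higher. Among genes with a mean normalized count of 500 or more, which most of these targets have, 44.1% passed as lower and 26.6% as higher. Past the threshold of 1 were 9 as lower and 2 as higher, against 6.84% and 11.8% of all genes. Among the genes that fell were DRAM1, a lysosomal protein of autophagy (-2.28, standard error 0.065, adjusted p = 6.69e-10), EPHA2, an ephrin receptor (-2.25, adjusted p = 3.51e-08), and PLK2, a polo-like kinase (-1.91, adjusted p = 1.83e-09). The 3 that rose were TGFA, an EGF receptor ligand (4.33, from 8 and 11 to 207 and 190 counts), PERP, a membrane protein (2.47, from 11 and 11 to 83 and 46 counts), and CYFIP2, an actin regulator (0.26). With knockdown 7 of 29 passed as higher and 7 as lower, with a median of -0.06. Of all genes tested, 13.4% passed as higher and 10.8% as lower, and 0.596% passed the threshold of 1 as lower. Of those with a mean normalized count of 500 or more, 20.5% passed as higher and 16.0% as lower. DRAM1, with 35691 and 34678 counts in the KD control and 13889 and 13215 in the knockdown libraries, was the only one past the threshold of 1 there (-1.33, standard error 0.058, adjusted p = 3.83e-07). RRAD, a small GTPase, rose by 0.82 (adjusted p = 1.79e-05), ACER2, a ceramidase, by 0.54 and SESN2, a sestrin, by 0.49, while TGFA fell by 0.54 and STEAP3, a metalloreductase, by 0.51.

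Of the p53 regulators, 5 of 21 passed as higher and 10 as lower with overexpression (median -0.09), beside 31.7% and 29.1% of all genes tested. With knockdown 4 of 20 passed as higher and 3 as lower (median 0.12), beside 13.4% and 10.8%. Most of these genes have a mean normalized count of 500 or more. Among all genes with such counts the shares were 26.6% and 44.1% with overexpression and 20.5% and 16.0% with knockdown. The counts of this list are thus near those of well-counted genes in general. TP73, a p53 paralogue, rose with overexpression from 206 and 314 to 795 and 622 counts (1.41, standard error 0.121, adjusted p = 2.68e-06), while ATR, a kinase of the damage checkpoint, fell by 0.60 with overexpression (adjusted p = 4.34e-06) and rose by 0.36 with knockdown (adjusted p = 0.000699). PPP1R13B, which encodes the p53 cofactor ASPP1, rose by 0.59 and 0.26 in the respective comparisons, and TP53BP2 of the same family fell by 0.51 and 0.28. KAT5, an acetyltransferase, rose by 0.24 and CDKN2A, whose ARF product inhibits MDM2, fell by 0.50 with overexpression. With knockdown HIPK2, a p53 kinase, rose by 0.36, and CHEK1, a checkpoint kinase, and SIRT1, a deacetylase, fell by 0.32 and 0.29. TP63, another paralogue, added after its values had been seen, had 0 counts in both parental libraries against 38 and 39 with overexpression, at least 12-fold higher when set against a floor of 3 counts per library.

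Of 10 other BCL2 family genes tested with overexpression, 5 passed as higher and 1 as lower (median 0.12), beside 31.7% and 29.1% of all genes tested. Among the 5, HRK went from 1 and 2 to 27 and 28 counts and BIK from 16 and 8 to 34 and 22. Both had few counts and were named after their values had been seen. BOK, a BAX-like effector, rose by 2.24 (adjusted p = 1.83e-08), BMF, a BH3-only protein, by 1.15 (adjusted p = 1.47e-06) and BAD, another BH3-only protein, by 0.15 (adjusted p = 0.0412), and BCL2L13 fell by 0.54 (adjusted p = 3.08e-06). With knockdown BMF rose too, by 0.67 (adjusted p = 0.00244), as did BNIP3L, a mitophagy receptor, by 0.25, and no other gene of the 12 tested passed. Of the 19 caspase, apoptosome and inhibitor of apoptosis (IAP) genes, 13 were lower and 4 higher with overexpression (median -0.31), and 2 were lower and 4 higher with knockdown (median 0.10). With overexpression 29.1% of all genes tested passed as lower and 31.7% as higher. Among those with a mean normalized count of 500 or more, 44.1% passed as lower and 26.6% as higher. With knockdown 10.8% of all genes tested passed as lower and 13.4% as higher. Among genes with a mean normalized count of 500 or more these shares were 16.0% and 20.5%. The knockdown counts of this list are thus near those of genes in general. CASP8, the caspase that acts below FAS and TNFRSF10B, had 1312 and 1606 counts in the parental, 346 and 299 in the overexpression, 733 and 749 in the KD control and 1125 and 1093 in the knockdown libraries. It was lower in both overexpression libraries and higher in both knockdown libraries than in their controls, with log2 fold changes of -2.22 (standard error 0.078, adjusted p = 2.80e-09) and 0.63 (standard error 0.077, adjusted p = 0.000234). CFLAR, which blocks CASP8, fell by 1.04 with overexpression (adjusted p = 4.55e-08) and BIRC3, an IAP gene, by 0.54. CYCS, the cytochrome c gene, rose in both comparisons, by 0.62 and 0.52. DIABLO, an IAP antagonist, and CASP9, the apoptosome caspase, rose by 0.53 and 0.22 with overexpression, and with knockdown HTRA2, a mitochondrial protease, fell by 0.22.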

How the data were processed

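The authors trimmed the reads, aligned them to GRCh38 with Hisat2 and counted them with featureCounts, and the deposited values are raw read counts per gene without normalization. The strand setting is not given in the sources used here. Of 60662 lines, 3 lines of 1 gene split over several lines were left out. Symbols were taken from GENCODE release 44, which named 60418 of 60659 genes. Libraries held 38316523 to 56256979 counts, which sets the precision of low genes.

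For each comparison, its 4 libraries were filtered with filterByExpr, scaled with TMM and tested with the two-sided quasi-likelihood test of edgeR (version 4.0.16, under R 4.3.3 with limma 3.58.1), with Benjamini-Hochberg adjustment over all genes tested. A gene passed at an adjusted p under 0.05. A second threshold, adapted from the study's methods, asked in addition for a log2 fold change of 1 or more in size and for a mean above 20 normalized counts. The methods name a 1-fold change, read here as 1 on the log2 scale, and an unadjusted p, replaced here by the adjusted one. The code of the fits was run on simulated data with a larger replicate spread and far fewer changed genes than here. That run therefore does not bear on the calls. All 33 genes passed the filter on low counts in both comparisons, with mean normalized counts of 339.6 to 26962 and 738.8 to 46969. The members and the lists of other pathway genes and markers were chosen with earlier results of these data known. Of those lists, the 3 genes with the largest change in each direction that passed the test with a mean normalized count above 20 are named. Some genes of those lists are not reported here. Levels are reads per kilobase of exon and per 1000000 TMM-scaled reads.

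Replicates differed by more than counting noise (chi-square per degree of freedom 6.05 to 8.86), and the biological coefficient of variation was 0.0565 and 0.0613. Alternatives were RLE and upper quartile scaling, DESeq2 1.42.0, no low-count filter, gene length corrections, a replicate block, all 8 libraries in 1 fit and leaving out each library. Exons of 18 members overlap no other gene, and those of 6 (XPC, PHLDA3, FAS, BCL2L11, BCL2L1 and TIGAR) overlap others over more than 10% of their bases.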

Additional observations from a re-analysis of the deposited data

How the results depend on the processing

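With overexpression, 24 of the 33 genes kept their direction and their side of the threshold under every alternative, and in the difference of effects 28. With knockdown 14 did, and 22 did when the refits without 1 library are set aside. Leaving out 1 library at a time gave 25 to 26 members lower and 2 higher each time with overexpression (median -0.47 to -0.39), 4 to 7 higher and 6 to 8 lower with knockdown (median -0.10 to 0.06), and 20 to 21 lower and 4 to 5 higher in the difference of effects (median -0.56 to -0.52). A lone library left in a group was assumed to vary like the others. The threshold of 1 on the log2 scale left 0 higher and 8 lower with overexpression and 0 and 0 with knockdown. The median with overexpression was -0.34 under upper quartile scaling, where the median of all genes was 0.11, and -0.53 after the correction for gene length and GC content, which was added after the data had been seen. That correction also ended the overexpression calls on MDM4 (adjusted p = 0.879), CCNG1 (0.641), TIGAR (0.0509) and TP53INP1 (0.0783) and made GADD45A pass as lower (-0.39). The median of the difference of effects was -0.60 with RLE factors, -0.47 with upper quartile scaling, -0.60 with DESeq2 and -0.62 without a filter on low counts. Without that filter 6 members were lower with knockdown. Median levels scaled by library totals alone were 17.4 in parental, 15.7 in overexpression, 17.1 in KD control and 21.0 in knockdown cells.

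Signs turned, with none of the changes past the test except that of BBC3 (-0.30), in these cases: with overexpression PPM1D (0.053) and BCL2L11 (0.0030) under upper quartile scaling and PPM1D (0.020) and BBC3 after the correction for length and GC content; with knockdown GDF15 (-0.0077) under upper quartile scaling, BTG2 (0.0032) and TP53I3 (0.020) after the length correction, BTG2 (0.0033), TP53I3 (0.022) and SPATA18 (0.0010) after it with the replicate block, and TP53I3 (0.013) after the correction for length and GC content. Leaving out 1 library with knockdown also turned BTG2 (-0.056 to 0.0021), PHLDA3 (-0.15 to 0.070), TP53I3 (-0.10 to 0.085), SPATA18 (-0.14 to 0.11), AEN (-0.10 to 0.059), TNFRSF10B (-0.096 to 0.020), BCL2L11 (-0.061 to 0.18), GADD45A (-0.015 to 0.089), GDF15 (-0.062 to 0.074) and BAX (-0.024 to 0.23). The causes were not tested.

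Among the other lists, RLE factors gave 2 other BCL2 family genes lower with overexpression, and DESeq2 gave 2 caspase, apoptosome and IAP genes and 3 other BCL2 family genes higher with overexpression, and 1 caspase, apoptosome and IAP gene lower and 7 p53 regulators higher with knockdown.

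Same-numbered libraries deviated together with a correlation over 13550 genes of 0.0415 between parental and overexpression and 0.192 between KD control and knockdown. Nothing in the labels says that a number marks a shared culture or day, so the numbers were not taken as pairs. With the replicate block, 26 members were lower and 2 higher with overexpression and 11 lower and 7 higher with knockdown, where FDXR and FAS also passed.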
